A study of Drosophila melanogaster with 6 samples.

Results

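Double-stranded RNA (dsRNA) against bacterial β-galactosidase was the mock treatment of an RNA interference experiment in Drosophila S2 cells, and the 2 mock arrays were compared with the 2 arrays of untreated cells. These are 4 of the 6 arrays of the study. They were chosen by their titles, and all 18769 probe sets that are not controls entered the comparison. The cells of every group were S2 cells of the Drosophila Genomics Resource Center, an established line derived from embryos with features of macrophage-like blood cells, grown in M3 medium with serum, bacto-peptone and yeast extract. Untreated cells received nothing. Mock-treated cells were harvested 96 hours after dsRNA against β-galactosidase was added, and NELF-depleted cells 96 hours after dsRNA against the fly subunits NELF-B and NELF-E. No stable transgene or selection is named for any group. Each array held biotin-labelled RNA of 1 sample on an Affymetrix Drosophila Genome 2.0 chip, which reads each transcript near its 3′ end with a set of short probes. The labels do not say that the replicates were separate cultures, so the errors below measure only the spread between arrays, which may be technical. The number of arrays, 2 per group, limits the precision.

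In flies, long dsRNA is cut by the nuclease Dicer-2 into short interfering RNAs, which the partners R2D2 and Loquacious hand to Argonaute 2. Argonaute 2 then cleaves any transcript that pairs with them. S2 cells take dsRNA up from the medium by receptor-mediated endocytosis, which makes them a standard system for gene silencing. In flies the same machinery defends against RNA viruses, and dsRNA against a bacterial gene serves as a control that carries the treatment without a matching fly transcript. The comparison asks what that treatment does to messenger RNA levels and which gene classes stay close to their untreated level.

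Levels are log2 intensities after quantile normalization, which gives every array the same distribution, and a difference is the mock mean minus the untreated mean. A probe set was taken as above background when its mean over the 6 arrays exceeded a log2 level of 3.88, the 95th percentile of 17 probe sets for tags that no fly transcript should match. Of the 11981 genes read by a probe set for exactly 1 gene, 6532 were above background. Levels of different probe sets are not comparable with each other, so only differences between groups are ranked. The 2 mock arrays differed in brightness before normalization, with mean intensities of 388 and 294 against 410 and 403 in untreated cells. The ratio of 3′ to 5′ signal, a measure of RNA integrity, ranged from 2.13 to 2.63 over the 4 arrays for GAPDH and from 1.53 to 2.11 for actin, and the groups overlapped in both.

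Blood-cell transcripts were present in both groups. Of 19 measured hemocyte markers, 13 were above background. They included serpent (srp, the GATA factor of blood cells), Peroxidasin (Pxn) and the phagocytosis receptor eater. Pxn stood at 11.43 and 11.86 in untreated cells and at 11.29 and 11.71 in mock cells. For srp the levels were 10.94 and 11.40 against 11.21 and 11.13. The groups overlapped for both genes. NimC1, Sr-CI, gcm, PPO1, lz and atilla were below background. Of 14 measured markers of nerve, muscle, fat body, gut and germ line, only elav and bgcn were above background.

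The knockdown targets of the NELF-depleted group served as a check of the labels. NELF is a protein complex that keeps RNA polymerase II paused just downstream of promoters. The NELF-B probe set read 8.10 and 7.998 in untreated cells, 8.04 and 7.93 in mock cells, and 6.24 and 5.86 in NELF-depleted cells. The Nelf-E probe set read 8.15 and 8.39, then 8.16 and 8.27, and then 5.90 and 5.74. Untreated and mock arrays overlapped for Nelf-E and for NELF-B, and the NELF-depleted arrays lay below all 4. The third subunit measured, TH1, read 9.19 and 9.36 in untreated cells against 9.21 and 8.86 in mock cells, a difference of -0.24 ± 0.13 (SE).

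No probe set passed an adjusted p under 0.05 between mock and untreated cells, which is 0% of 18769 tested with limma. The smallest adjusted p was 0.99993. At an unadjusted p under 0.05 there were 687 probe sets, 344 higher and 343 lower in mock. They made up 3.66% of those tested, where 938 would pass by the threshold alone. Among the 8344 probe sets above background 119 passed it, 1.43%, against 417 by the threshold alone. The same fit did call probe sets for NELF depletion on the same chips. It called 192 (1.02%) in NELF-depleted against mock cells and 212 (1.13%) in NELF-depleted against untreated cells. Those contrasts share control arrays with each other and were not tested against the mock contrast.

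Above background the median difference was -0.00051, and the median absolute difference was 0.088. The 5th and 95th percentiles were -0.35 and 0.30. A difference beyond 1.5-fold was measured for 286 probe sets above background, 3.43% of them, and one beyond 2-fold for 73. Below background 3017 of 10425 probe sets differed by more than 2-fold, with no probe set passing the test. In the brightest class of genes described below, 1 gene differed beyond 1.5-fold: Inos, the inositol-phosphate synthase gene, named after its values were seen. It read 12.73 and 12.69 in untreated cells, 12.77 and 11.45 in mock cells, and 12.79 and 11.30 in NELF-depleted cells. Its difference of -0.61 ± 0.43 rests on mock replicate 2. The plot of difference against level shows how the scatter narrows from dim to bright probe sets.

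**Figure D1:**
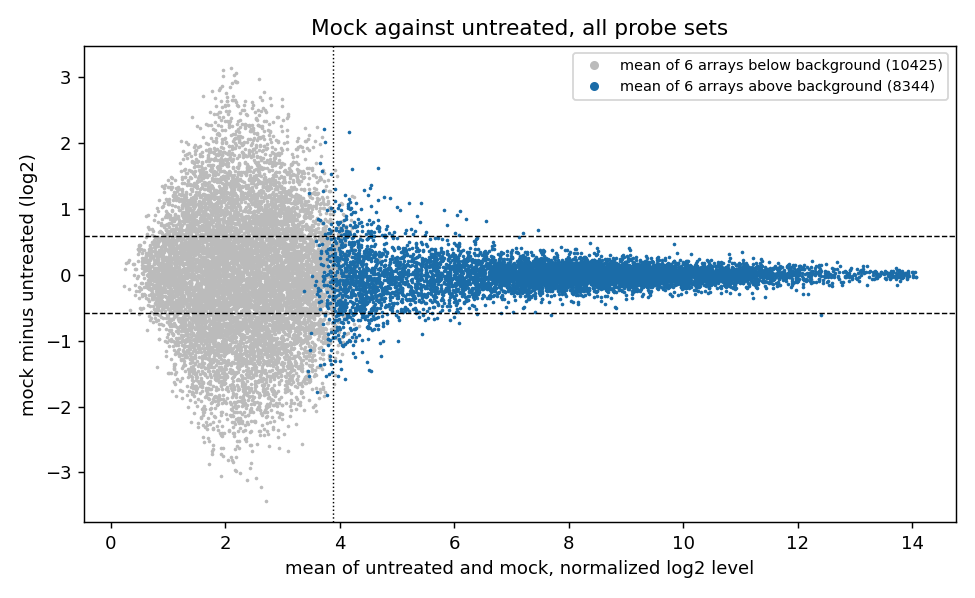
Mock minus untreated difference (log2) against the mean level (normalized log2) for each of 18769 probe sets, 10425 below background in grey and 8344 above it in blue. Dashed lines mark 1.5-fold either way and the dotted line the background level of 3.88. The blue points close in on 0 as the level rises, and no point passed the test.

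A p that misses its threshold does not show that levels were equal, so the 95% interval of each difference was used as well. A gene counted as close when the whole interval lay within 1.5-fold either way. This held for 5830 of 8344 probe sets above background (69.9%) and for 4894 of 6532 genes (74.9%). The number of probe sets depended on the fit and the scaling: it was 3504 with a single prior variance, 1928 with arrays centred on their medians and 20 with the values as deposited. The share depended on level. Among the 2178 dimmest genes above background, with levels up to 7.57, 662 were close (30.4%). Of the next 2177 genes 2079 were close (95.5%), and of the brightest 2177, 2153 were (98.9%). In these brighter classes together 97.2% were close. The median interval reached 1.49-fold either way in the dimmest class, 1.22-fold in the middle one and 1.18-fold in the brightest. So the arrays could bound a change at 1.5-fold for most genes of medium or high level, but not for most dim genes.

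Mock and untreated arrays were about as far apart as the 2 arrays of each group. Over the 6532 genes the median absolute difference was 0.14 between the untreated arrays and 0.17 between the mock arrays. Between single untreated and mock arrays it was 0.11 for the pair of replicates numbered 1 and 0.14 for those numbered 2. The crossed pairs gave 0.16 for untreated replicate 1 against mock replicate 2, and 0.13 for untreated replicate 2 against mock replicate 1. The mock pair was thus the most distant of the 6, and the untreated replicate 1 with mock replicate 1 the closest. At the level of genes, 91 of those above background (1.39%) had an unadjusted p under 0.05.

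**Figure D2:**
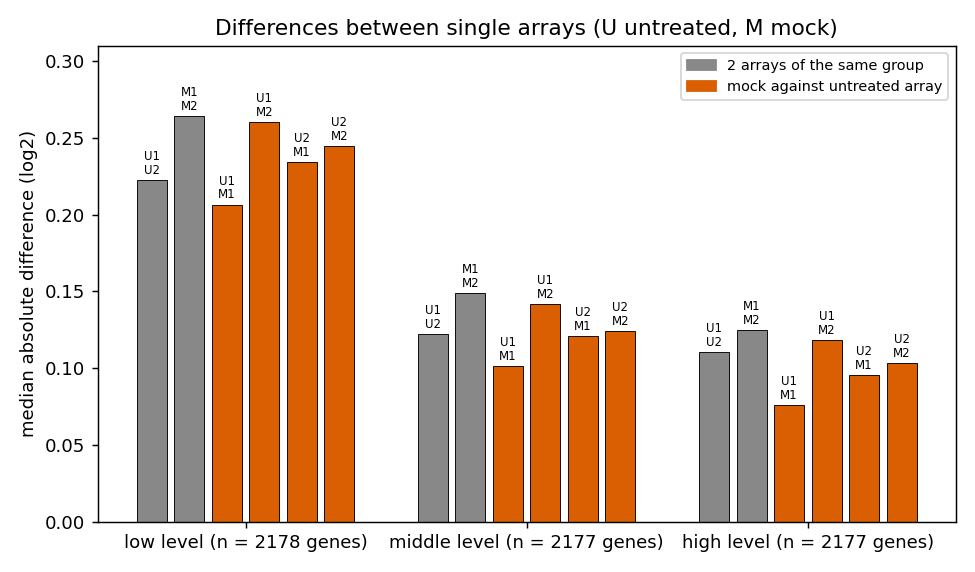
Median absolute difference (log2) between single arrays for genes above background, in 3 classes of level with about equal numbers of genes. Grey bars are the 2 arrays of 1 group and orange bars an untreated against a mock array. In each class no orange bar is higher than the grey bar of the mock pair, and the pair of untreated and mock replicate 1 is the lowest.

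Detection was also counted array by array. Of the 11981 genes, 6226 were above background on all 4 arrays and 3907 on none. There were 82 genes above it on both mock arrays only and 97 on both untreated arrays only. Within untreated cells, 449 genes were above background on replicate 1 alone and 471 on replicate 2 alone. Within mock cells the numbers were 525 and 526. The counts within a group set no condition on the other group's arrays, so they are not comparable with the 82 and 97. Both mock arrays lay above both untreated arrays in 820 of the 6532 genes above background (12.6%), and both lay below in 808 (12.4%).

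The genes that process dsRNA stood close to their untreated level. Of 12 listed core genes of the siRNA pathway 11 were read by a probe set for 1 gene, AGO2 being the exception. All 11 were above background and 10 of these were close, where 74.9% of genes above background were. Of its members of medium or high level 10 of 10 were close, beside 97.2% of all such genes, so the share is near that of other genes. Dicer-2 (Dcr-2), which cuts long dsRNA, read 9.83 and 10.04 in untreated cells and 9.94 and 9.99 in mock cells. The difference was 0.028 ± 0.11 (SE), with a 95% interval from -0.21 to 0.26. The mock arrays lay inside the untreated range. Its partner r2d2 read 7.55 and 7.88 against 7.73 and 7.85, a difference of 0.074 ± 0.15.

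Tudor-SN, a nuclease of the RISC complex, read 12.03 and 12.01 against 11.98 and 12.06. Ars2, which links nuclear cap binding to small RNA processing, read 9.29 and 9.53 against 9.48 and 9.54, a difference of 0.10 ± 0.12. Fmr1, the fly fragile X protein gene, had the largest negative difference among the close genes, -0.18 ± 0.14. For loqs, which encodes dsRNA-binding partners of the Dicer enzymes, both mock arrays, at 6.72 and 6.98, lay below both untreated arrays, at 7.196 and 7.06. That difference of -0.27 ± 0.17 had an interval from -0.65 to 0.10, and the adjusted p from limma was 0.99993. The 7 measured genes listed for the microRNA pathway were all close. They ran from -0.16 for Nbr, a trimming nuclease, to 0.18 for tut. The product of tut acts with bgcn in translational repression, so its place in that list is loose.

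Genes for taking dsRNA up were measured in the same way. Of 16 measured genes of dsRNA uptake and endocytosis 12 were above background, and 11 of those were close. The scavenger receptors Sr-CI, Sr-CII, Sr-CIII and Sr-CIV were below background, and their differences carry no information. The receptor eater read 9.02 and 9.42 in untreated cells against 9.13 and 8.83 in mock cells, a difference of -0.25 ± 0.15, and the groups overlapped. Clathrin heavy chain (Chc) read 11.65 and 11.77 against 11.63 and 11.75, a difference of -0.024 ± 0.095. AP-2sigma, an adaptor subunit of clathrin coats, had both mock arrays (8.58 and 8.62) below both untreated arrays (8.91 and 8.70), with a difference of -0.21 ± 0.12. The exception to closeness was egh, a glycosyltransferase gene, with an interval from -0.62 to 0.32, whose untreated arrays at 8.20 and 7.41 lay on either side of the mock arrays.

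**Figure D3:**
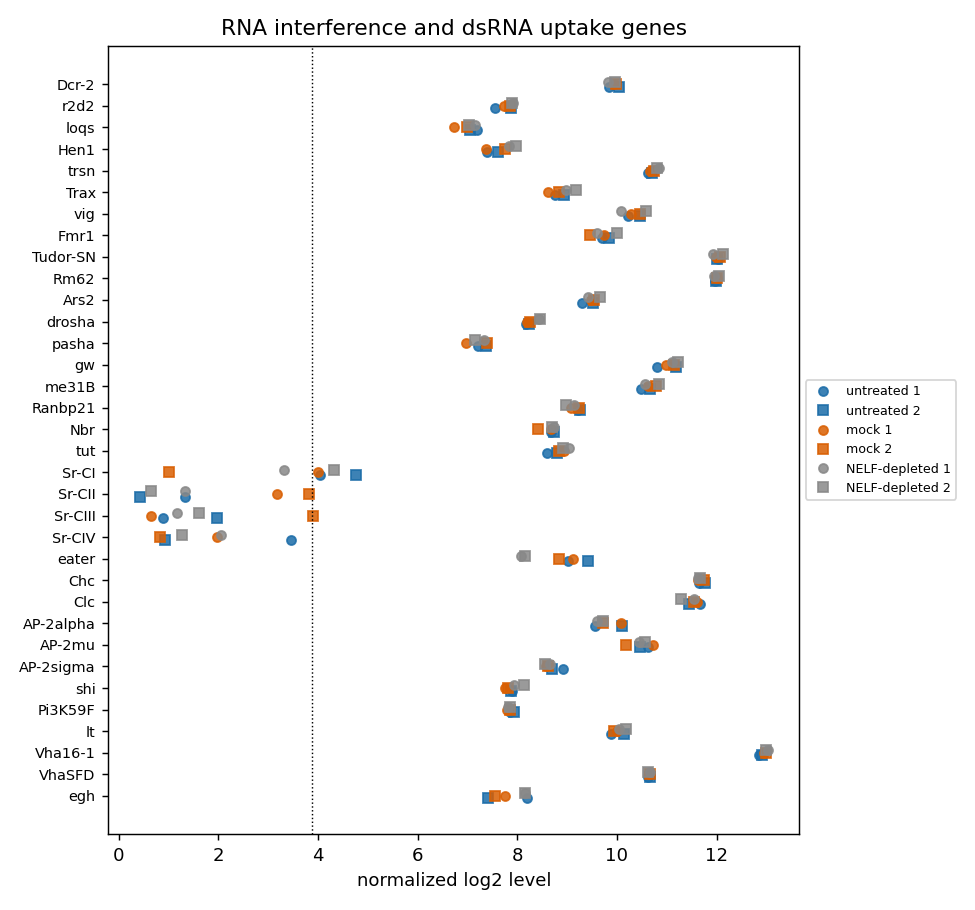
Normalized log2 level on the 6 arrays of each measured gene listed for the siRNA pathway, the microRNA pathway and dsRNA uptake. Untreated is in blue, mock in orange and NELF-depleted in grey, with circles for replicate 1 and squares for replicate 2. The dotted line is the background level of 3.88, and the 4 scavenger receptors straddle or lie below it.

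No antiviral or cytokine gene that was measured passed the test. In flies Vago is a secreted antiviral peptide induced by Dicer-2, upd1 and upd2 are ligands of the JAK-STAT receptor domeless, and TotC is a stress peptide. All 4 were below background, as was Listericin, an antimicrobial gene. Of the 14 measured genes of this list 9 were above background, and all 9 were close. The antiviral marker vir-1 read 11.35 and 11.13 in untreated cells and 11.19 and 11.24 in mock cells, a difference of -0.021 ± 0.10. The transcription factor Stat92E read 10.97 and 10.96 against 10.91 and 10.77, a difference of -0.12 ± 0.10. Sting, part of an antiviral signalling route, read 9.01 and 9.16 against 9.04 and 9.34. The groups overlapped for vir-1 and Sting.

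Toll and Imd signalling, the fly pathways that answer fungi and bacteria through NF-κB factors, were measured with 21 genes above background, of which 18 were close. Relish (Rel), the Imd transcription factor, read 10.71 and 10.90 in untreated cells and 10.74 and 10.95 in mock cells. cactus (cact), the inhibitor of Dorsal, read 9.30 and 9.33 against 9.40 and 9.41, a difference of 0.088 ± 0.097. Dif, PGRP-LE and pirk were not close. The differences were -0.34 ± 0.30 for Dif and -0.51 ± 0.47 for PGRP-LE, dim genes, and -0.088 ± 0.24 for pirk, whose 2 arrays differed within each group.

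Antimicrobial peptide genes and other immune effectors were bounded poorly. Of 11 measured members 8 were above background, and only Mtk, which encodes metchnikowin, was close. All 8 differences were below 0, from -0.28 for PGRP-SC2 to -0.033 for edin, and their median was -0.15, where the median of all 6532 genes was 0.00012. The groups overlapped in all 8, where both mock arrays lay above both untreated arrays in 12.6% of genes and below in 12.4%, so with 8 genes this says little about the class. Drosomycin (Drs) read 6.52 and 7.04 in untreated cells and 6.29 and 6.82 in mock cells. Attacin D (AttD) read 6.85 and 7.30 against 6.71 and 7.22. The median gap between the 2 arrays of a group was 0.44 for untreated and 0.52 for mock in these genes, larger than their median difference between groups. Leaving out 1 array at a time moved the median difference of the class between -0.40 and 0.078, so its sign depends on single arrays.

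Stress genes were read next. Of the heat shock and chaperone genes 10 were above background and all 10 were close, all of medium or high level, where 97.2% of all such genes were close. The share is thus near that of other genes. Differences ran from -0.12 for Hsp27 to 0.021 for Hsp60A. Hsp26, a small heat shock protein gene, read 8.80 and 8.37 in untreated cells and 8.55 and 8.43 in mock cells. Hsp68 read 8.001 and 8.06 against 7.92 and 7.95, and DnaJ-1 read 11.59 and 11.59 against 11.52 and 11.43. Of the 10 differences 8 were below 0. Both mock arrays lay below both untreated arrays in 3 genes, Hsp68 and DnaJ-1 among them, and above in 0. Over all genes above background these shares were 12.4% and 12.6%. The unfolded protein and integrated stress response had 10 close genes of 12. In it Hsc70-3, the chaperone BiP of the endoplasmic reticulum, read 12.98 and 13.02 against 13.04 and 12.96. PPP1R15, which recruits the phosphatase that reverses eIF2α phosphorylation, differed by 0.031 ± 0.088. The dim genes Herp and Atf3 were the exceptions. Ire1 had the largest difference of the 12, 0.18 ± 0.13, with both mock arrays above both untreated arrays. Among 17 genes of the p53, JNK and DNA damage responses 16 were close. Of these, puckered (puc), a target of JNK signalling, read 10.49 and 10.45 against 10.62 and 10.46. Both mock arrays lay above both untreated arrays in rad50 and Jra, with differences of 0.22 ± 0.12 and 0.13 ± 0.099. They lay below in egr and in the dim gene Ets21C, at -0.14 ± 0.10 and -0.31 ± 0.49.

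Reference genes commonly used for normalization were all close: 7 of 15 listed had a probe set for 1 gene, and their differences ran from -0.062 for RpS20 to 0.098 for Gapdh1. RpL32, a ribosomal protein gene often called rp49, read 13.88 and 13.83 in untreated cells and 13.90 and 13.87 in mock cells. β-tubulin at 56D (betaTub56D) read 13.31 and 13.34 against 13.34 and 13.42. TATA-binding protein (Tbp) read 8.22 and 8.11 against 8.05 and 8.19. The widest interval of the 7, that of Tbp, ran from -0.31 to 0.23. All 7 were of medium or high level, where 97.2% of all genes were close, so the share is near that of other genes. Their median of 0.031 ran from -0.17 to 0.21 under other processing.

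Most housekeeping complexes are bright, so a high share of close members is what the 97.2% of all genes of medium or high level sets beside them. They are shown in the plot of gene classes by their median and their range. Class medians in it ran from -0.15 for cuticle proteins to 0.21 for olfactory and gustatory receptors, both dim classes, and no member of any class passed the test. With 1 array left out these medians ran from -0.28 to 0.17 and from 0.0087 to 0.47. The 26 proteasome subunits above background were all close, from -0.099 to 0.12. So were 68 of 69 mitochondrial ribosomal proteins, the exception being mRpS22 at 0.28 ± 0.16. Of 92 listed cytosolic ribosomal protein genes only 41 had a probe set for 1 gene. Of these 38 were above background and 35 were close, and the exceptions RpL37-2, RpS5b and RpS28a were dim. All 22 Mediator subunits, all 8 CCT chaperonin subunits and all 7 COP9 signalosome subunits above background were close. NADH dehydrogenase had 25 of 26 close and the translation initiation factors 30 of 32. All 7 spliceosomal Sm and U snRNP proteins had a difference above 0, from 0.016 for SmE to 0.14 for SmD3, with a median of 0.090, and all 7 were close. Their median ran from 0.0051 without mock replicate 2 to 0.15 without mock replicate 1, and it was -0.24 as deposited and -0.14 with arrays centred on their medians. Quantile normalization gives every array the same distribution, so these are differences relative to the other genes. With the values as deposited the median of all probe sets above background was -0.34, and a shift shared by most genes cannot be told apart from array brightness.

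**Figure D4:**
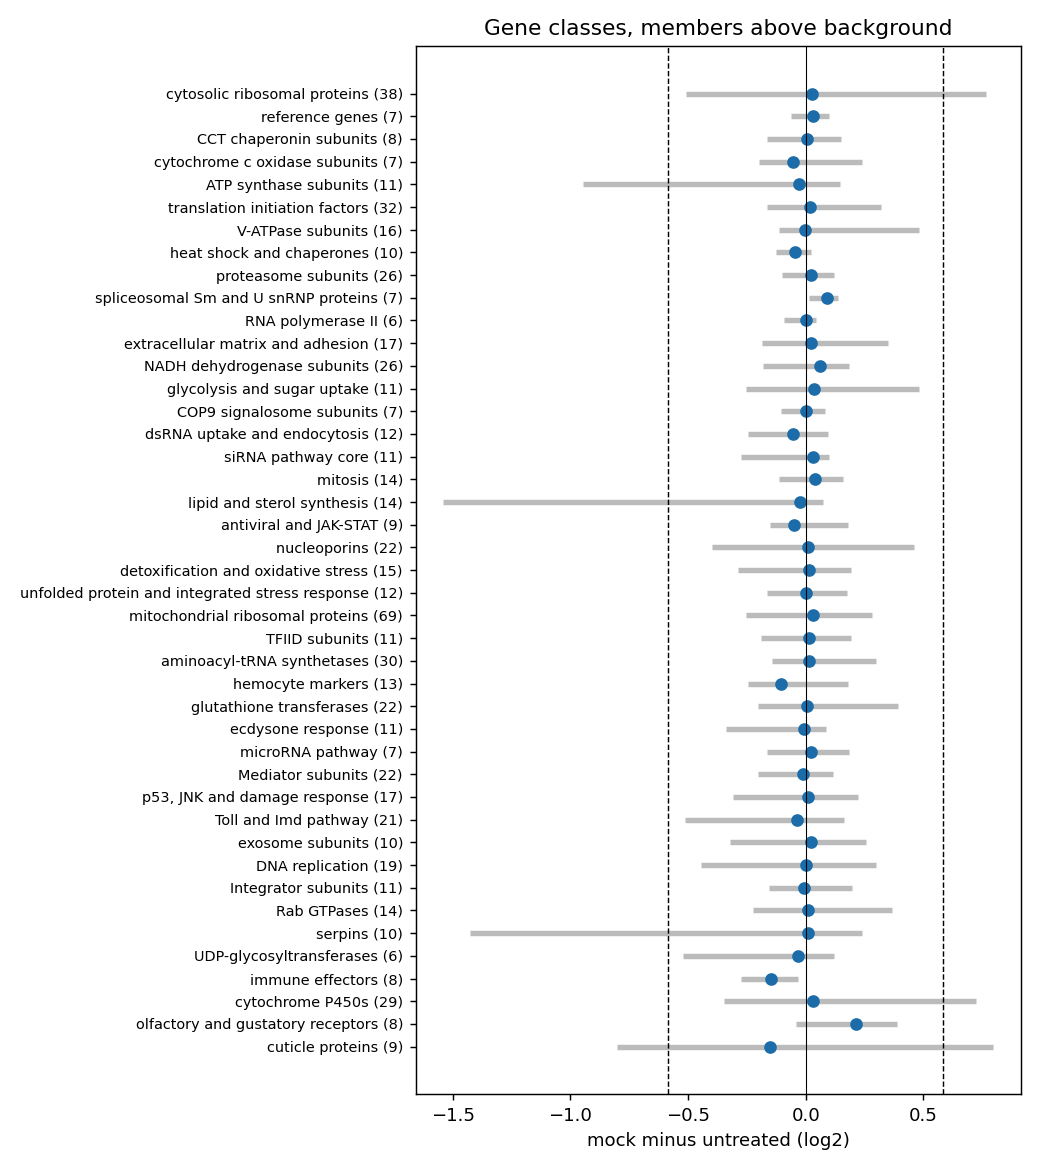
Mock minus untreated difference (log2) of the gene classes with 6 or more members above background, ordered by level with the brightest at the top. Points are medians, grey lines run from the lowest to the highest member, the number of members is in brackets, and dashed lines mark 1.5-fold. Only ranges that reach dim members cross the dashed lines.

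Classes tied to the state of the cell were also examined. Of 19 DNA replication genes 17 were close, and Orc5 and CycE were not. Orc5, a subunit of the origin recognition complex, read 8.19 and 8.03 in untreated cells and 7.61 and 7.72 in mock cells. Mcm3, a subunit of the replicative helicase, read 8.56 and 8.59 against 8.88 and 8.87, a difference of 0.30 ± 0.11. The helicase subunits Mcm2 and Mcm5 differed by 0.016 and 0.035. Mcm6 differed by 0.19 ± 0.099, with both mock arrays above both untreated arrays. Of the 19 genes, both mock arrays lay above both untreated arrays in 4 and below them in 3. Over all genes above background these shares were 12.6% and 12.4%. Mitosis genes were close in 14 of 14. In glycolysis and sugar uptake 9 of 11 were close, and the exceptions were Pglym78, described below, and the trehalose transporter Tret1-1. Both mock arrays lay above both untreated arrays in 4 of the 11, Pglym78 and Eno among them, and below in 0. All genes above background had the shares of 12.6% and 12.4%. Eno differed by 0.12 ± 0.089. In the lipid and sterol list 12 of 14 were close, with FASN1, a fatty acid synthase, at -0.023 ± 0.12. ATPCL, ATP citrate lyase, read 4.29 and 4.16 in untreated cells but 4.32 and 1.05 in mock cells, so its difference of -1.54 rests on mock replicate 2.

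Genes of other tissues and environments were mostly silent in both groups. Of 100 measured cuticle protein genes 9 were above background, of 112 olfactory and gustatory receptors 8, and of 47 odorant-binding proteins 2. Cytochrome P450 genes, which include detoxifying enzymes, had 29 of 81 above background, and 12 of those were close. Of the 11 P450 genes of medium or high level 9 were close. Both mock arrays lay above both untreated arrays in 9 of the 29 and below in 4. Over all genes above background these shares were 12.6% and 12.4%, and the counts were not tested. For the dim members of these classes the arrays bound little, so their lack of calls was not informative. The fly homologs of the mock target were also dim: Gal was below background, and Ect3 read 5.14 and 5.56 in untreated cells and 4.96 and 5.74 in mock cells, a difference of -0.00017 ± 0.40.

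Since nothing passed the test, the genes with the smallest p whose groups did not overlap are given as values. Among those higher in mock, CG13895 read 8.83 and 8.87 in untreated cells, 9.27 and 9.25 in mock cells and 8.68 and 8.66 in NELF-depleted cells. Its difference from untreated was 0.41 ± 0.10, with a limma p of 0.0018 before adjustment and 0.99993 after. The NELF-depleted cells, which also received dsRNA, lay below the untreated arrays for it. Pglym78, a phosphoglycerate mutase of glycolysis, read 8.10 and 8.15 in untreated cells against 8.41 and 8.80 in mock cells, and 8.11 and 8.29 in NELF-depleted cells. Coa7, named for a cytochrome c oxidase assembly factor, read 8.26 and 8.34 against 8.63 and 8.78, and 8.64 and 8.88 in NELF-depleted cells. For Coa7 the NELF-depleted arrays, like the mock arrays, lay above both untreated arrays. The place of the mock arrays was fixed by the choice of genes, and the untreated arrays are the same in both comparisons. CG43117 read 6.62 and 7.16 against 7.52 and 7.51, a difference of 0.63 ± 0.19.

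CG10953 differed by 0.98 ± 0.28, but its other probe set differed by -0.21 ± 0.34. CG31759 differed by 0.91 ± 0.28 and CG11350 by 0.81 ± 0.26, the latter by a probe set whose probes can match other transcripts. CG34370, CG31313 and futsch had no untreated array above background. Their mock means were 1.05-fold, 1.15-fold and 1.31-fold the background level. Mock replicate 1 of CG34370 and of CG31313, at 3.54 and 3.49, was also below background. The mock means of these genes therefore pass it through mock replicate 2 alone. No other probe set of futsch or CG34370 was above background. The other probe sets of futsch differed by -1.07 and 0.22. CG34370 was listed by a probe set that was not its brightest. Its brightest differed by 0.51 ± 0.74, and the remaining ones by 0.77, 0.93 and -0.22.

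On the lower side, p115, a vesicle tethering factor of the Golgi, read 9.54 and 9.57 in untreated cells, 9.24 and 9.21 in mock cells, and 9.31 and 9.31 in NELF-depleted cells. The difference of -0.34 ± 0.095 kept its whole interval within 1.5-fold, from -0.55 to -0.13. The RNA-binding protein gene qkr58E-3 read 9.96 and 9.98 against 9.61 and 9.69, with 9.80 and 9.73 in NELF-depleted cells. In both genes the NELF-depleted arrays, like the mock arrays, lay below both untreated arrays. The choice of genes fixed the place of the mock arrays. The NELF-depleted arrays were set against the same untreated arrays, so they are no independent check. CG12065 read 7.08 and 7.13 against 6.51 and 6.53, and CG13373 read 7.59 and 7.81 against 6.996 and 7.26. Their NELF-depleted arrays, at 7.27 and 7.21 and at 7.66 and 7.54, lay within 0.2 of the untreated means. CG34041 differed by -0.50 ± 0.12, and its other, dimmer probe set by -0.13 ± 0.50. Orc5 differed by -0.45 ± 0.14. Cyp4d8, CG17207, CG3505 and Snmp1 were below background in mock cells. Their untreated means were 1.46-fold, 1.15-fold, 1.01-fold and 1.13-fold the background level. For CG3505 untreated replicate 2, at 3.83, was also below background. The listed probe set of CG17207 differed by -3.08 ± 0.73. A brighter one of the same gene, with a mean also below background, differed by -0.85 ± 0.83.

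**Figure D5:**
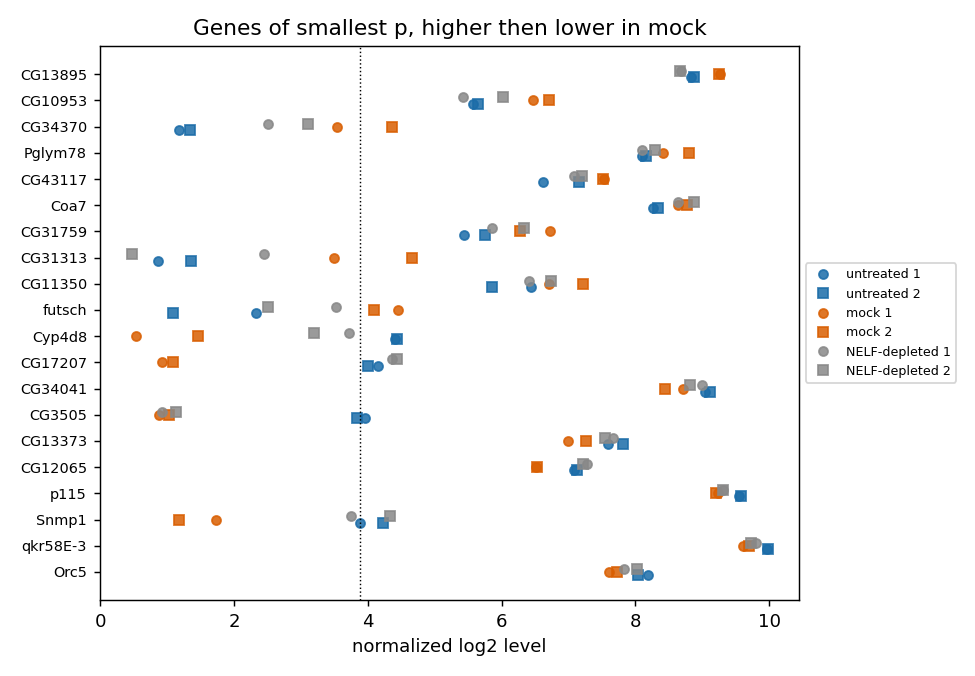
Normalized log2 level on the 6 arrays of the 10 genes of smallest p higher in mock (CG13895 to futsch) and the 10 lower in mock (Cyp4d8 to Orc5), with untreated in blue, mock in orange, NELF-depleted in grey and the background level as a dotted line. Blue and orange do not overlap for any of the 20 genes, as the choice required, and none had an adjusted p below 0.99993.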

How the data were processed

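The deposited values are linear intensities of 18952 probe sets on each array. How the authors summarised probes, scaled arrays or subtracted background is not given in the sources used here. The 183 control probe sets were left out of tests.

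Intensities were taken as log2(value + 0.819), where the offset is their 5th percentile. Changes of dim genes are therefore understated. The 6 arrays were quantile normalized. limma 3.58.1 in R 4.3.3 fitted a mean for each group to the 6 arrays, with 3 residual degrees of freedom and an intensity-dependent prior, two-sided, with Benjamini-Hochberg adjustment over 18769 probe sets. NELF-depleted arrays thus add to the spread estimate. The scripts were tested on simulated data. The annotation gave a single gene for 13647 probe sets and several for 402, and did not list 4720. The probe set with the highest mean stood for its gene, except in the listing of smallest p. There CG34370 and CG17207 were listed by a dimmer probe set. Symbols were updated through gene identifiers with RefSeq.

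Samples were grouped by title. The arrays of a group had 0 identical values. An exact two-sided permutation test of 2 arrays against 2 cannot go below p = 0.333. Members, lists and tests were chosen with earlier results of these data known. The symbol patterns of the Rab GTPases and exosome subunits were narrowed after their values were seen, because they had taken in genes of other kinds. As narrowed, 9 of 14 Rab GTPases and 9 of 10 exosome subunits above background were close. The rule for named genes took the 10 higher and 10 lower of smallest p with groups that did not overlap. It also took the 3 members of smallest p in each list and class extremes. All RNA interference, NELF, β-galactosidase homolog and reference genes measured were taken as well. Not every gene so taken is described in the text. Other genes in the text were picked as pathway examples after their values were seen. Alternatives changed the scaling, offset, filter, prior, gene summary, arrays and replicate block. No sequence is shown, since no sequence table was used here.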

Additional observations from a re-analysis of the deposited data

Results flagged for a closer look

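Control probe sets on the chip were outside the comparison, and 4 of those that read fly transcripts separated mock from untreated arrays in the same direction. Both mock arrays also lay above both untreated arrays in 12.6% of genes above background. Those for the 3′, 5′ and middle parts of 18S ribosomal RNA, AFFX-Dros-18S_rRNA_3_at, AFFX-Dros-18S_rRNA_5_at and AFFX-Dros-18S_rRNA_M_at, were higher in mock by 0.867, 0.787 and 0.61 on the normalized log2 scale. The 3′ probe set read 7.001 and 7.73 in untreated cells, 8.50 and 7.97 in mock cells and 7.47 and 8.19 in NELF-depleted cells. Mock replicate 1 was the highest of the 4 untreated and mock arrays for all 3 of them. In the deposited intensities the groups overlapped for all 3. There the 3′ probe set read 154 and 257 in untreated cells against 403 and 196 in mock cells. The middle one read 327 and 419 against 671 and 285. AFFX-Dros-GAPDH_M_at was higher in mock by 0.0976, at 10.60 and 10.59 against 10.69 and 10.69, while the 3′ and 5′ GAPDH probe sets of the same series differed by -0.032 and -0.019. Their part in the comparison was not tested.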

How the results depend on the processing

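No probe set was called in either direction under any of the 20 alternatives. The number at an unadjusted p under 0.05, 687 as reported, was 1041 with a single prior variance, 1094 with arrays centred on their medians, and 253, 172 and 126 with only means above the 40th percentile, the median or the background. It was 408 with 1 probe set per gene, 412 with the median over the probe sets of a gene, and 586 to 1101 when 1 array was left out, the highest without mock replicate 1. The number of probe sets above background with an interval within 1.5-fold, 5830 as reported, was 3504 with a single prior variance, 1928 with arrays centred on their medians, 20 with the values as deposited, and 4735 to 5081 with 1 array left out. The median difference above background moved from -0.00051 to -0.34 as deposited and -0.24 with median centring, and to 0.026 with hybridization controls. It was 0.042 with arrays centred on probe sets above background, an alternative chosen after seeing the data, under which the median of the cytosolic ribosomal proteins was 0.28. The sign of a common shift therefore depends on the scaling. Replicate numbers recur in the groups without a stated meaning. Deviations of same-numbered untreated and mock arrays correlated at 0.12 over 8344 probe sets. With the number as a replicate block, 0 probe sets were called, 781 had an unadjusted p under 0.05 and 6158 were within 1.5-fold. Of 838 values of named genes 108 moved by at least the standard error of the difference in the main fit. Among genes above background, the median interval was widest for the dimmest class.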

Other observations

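Immune effector genes were also compared between replicate numbers. Of the 8 above background, AttD, CecB, DptB, Drs, Mtk and edin were higher on replicate 2 than on replicate 1 in untreated and in mock cells, 6 of 8. Over all 6532 genes above background 1803 were higher on replicate 2 in both groups, and 55.9% changed in the same direction between replicates in both. This share, in either direction, was 75% for the immune effectors and 76.2% for the Toll and Imd pathway. It was 75.9% for cytochrome P450s and 90.9% for Integrator subunits, so a same direction is not particular to the effectors. Higher on replicate 2 in both groups were 8 of 21 Toll and Imd genes, 10 of 29 cytochrome P450s and 4 of 11 Integrator subunits. In the siRNA list 7 of 11 were, and in the microRNA list 5 of 7. For edin, an immune-induced gene, replicate 2 exceeded replicate 1 by 0.42 in untreated cells, 0.88 in mock cells and 0.71 in NELF-depleted cells. For AttD the gaps were 0.46, 0.51 and 0.25. Within replicate 1 all 8 genes were lower in mock, and within replicate 2 PGRP-SB1, PGRP-SC2 and edin were higher. No label gives the meaning of those numbers.

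Extracellular matrix and adhesion genes, many made by blood cells, were examined in the same way. Of 17 above background 14 were close. The laminin subunits LanA, LanB1 and LanB2 differed by -0.091, 0.024 and -0.11. SPARC, a basement membrane protein gene, read 13.35 and 13.52 in untreated cells and 13.38 and 13.45 in mock cells. The integrin subunit gene mys was the widest, at 10.44 and 11.28 against 11.38 and 11.04. It was read by 1 of its 2 probe sets, whose probes can match other transcripts. Glutathione transferases had 17 of 22 genes above background close.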
